A study of Mus musculus with 3 samples.

Results

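The data describe 7 genes that were highest in kidney neutrophils, out of 32886 genes measured in 20266 CD45+ immune cells: S100a8, S100a9, Retnlg, G0s2, Slpi, Il1r2 and Msrb1. They were chosen from earlier results of these data because their levels were highest in the cluster that was deposited as Neutrophils, so the differences between clusters are given here as a description, without a test. The cells came from kidneys of untreated wild-type male C57BL/6J mice aged 10 weeks, which were perfused, dissected by hand into the cortex, the outer part of the medulla (OM) and its inner part (IM), digested and sorted for CD45, the surface protein shared by white blood cells. Each compartment was sequenced with a droplet-based method at 3 facilities (Aachen, Bonn and Hamburg), which gives 9 libraries (a library being the cells of 1 compartment from 1 facility) and 23 deposited clusters. The groups differ only in the compartment. There was no treated or infected group, and the number of mice behind a library is not known from the deposited labels.

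Neutrophils are short-lived white blood cells that carry ready-made proteins in granules and in the cytosol, and few of them are found in healthy tissue. S100A8 and S100A9 are calcium-binding proteins that join as calprotectin, fill much of the neutrophil cytosol, take up zinc and manganese and, once released, act as alarmins through the receptor TLR4. Slpi encodes a secreted inhibitor of serine proteases such as neutrophil elastase. Il1r2 encodes a decoy receptor that binds interleukin-1 without signalling. G0s2 encodes an inhibitor of the lipase made from Pnpla2, Retnlg encodes a secreted resistin-like protein, and Msrb1 encodes a selenoprotein that repairs oxidised methionine.

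S100a8 and S100a9 lie next to each other on chromosome 3 in GRCm38, S100a8 at chr3:90668978-90670035 on the plus strand and S100a9 at chr3:90692632-90695721 on the minus strand, with 22596 bases between them. Retnlg lies at chr16:48872621-48874496, G0s2 at chr1:193272161-193273217, Slpi at chr2:164354070-164389095, Il1r2 at chr1:40074079-40125231 and Msrb1 at chr17:24736642-24742778. These positions are from GENCODE, and their gene starts can differ from those of RefSeq, which are used for the windows below. Promoter windows are shown for S100a8 and S100a9, the pair that varied together from cell to cell. Msrb1, the member with the smallest share of its UMIs in neutrophils, is shown too. The windows run 5′ to 3′ and are from RefSeq (GRCm38.p6, 250 bases before and 50 after the start annotated there). Capitals mark the TATA box TATAAA, the GC box GGGCGG and the C/EBP-type motif TTGCNNAA, searched on both strands with no overlap between them.
S100a8 (chr3:90668821-90669120, plus strand): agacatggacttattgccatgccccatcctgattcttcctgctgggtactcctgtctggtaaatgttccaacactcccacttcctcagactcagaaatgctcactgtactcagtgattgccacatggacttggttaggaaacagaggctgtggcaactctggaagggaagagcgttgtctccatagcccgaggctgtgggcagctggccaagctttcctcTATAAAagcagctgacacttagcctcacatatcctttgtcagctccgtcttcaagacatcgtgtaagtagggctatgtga
S100a9 (chr3:90695672-90695971, minus strand): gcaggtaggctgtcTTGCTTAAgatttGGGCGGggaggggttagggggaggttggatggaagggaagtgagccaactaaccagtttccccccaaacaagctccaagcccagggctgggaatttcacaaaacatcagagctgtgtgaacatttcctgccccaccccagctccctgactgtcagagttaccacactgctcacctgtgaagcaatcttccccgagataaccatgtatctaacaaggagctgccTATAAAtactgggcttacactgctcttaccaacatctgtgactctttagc
Msrb1 (chr17:24736343-24736642, plus strand): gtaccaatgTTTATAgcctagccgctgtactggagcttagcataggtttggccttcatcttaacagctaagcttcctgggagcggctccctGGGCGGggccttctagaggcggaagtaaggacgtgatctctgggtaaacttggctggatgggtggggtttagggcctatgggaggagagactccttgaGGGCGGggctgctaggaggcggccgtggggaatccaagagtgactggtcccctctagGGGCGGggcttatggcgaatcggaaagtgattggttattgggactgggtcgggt
TATAAA began at position -30 of the S100a8 window, counted from the start in RefSeq, and at position 0 of the S100a9 window. The Msrb1 window held GGGCGG at positions -159, -61 and -4, and TATAAA only as its reverse complement at position -241. S100a9 held GGGCGG at -223 and a TTGCNNAA match at -236. Of 32851 promoter windows of this length, 13.6% held TATAAA, 35.7% held GGGCGG and 10.8% held TTGCNNAA on either strand, and 3 of the 7 members held each. These matches describe letters in a window and were not tested for binding.

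The depth differed between facilities. Cells had a median of 887 UMIs (unique molecular identifiers, each standing for a captured RNA molecule) at Aachen, 3290.5 at Bonn and 2944 at Hamburg, and the library totals ran from about 2122810 (Aachen cortex) to 15267100 (Bonn cortex) UMIs. The Aachen and Bonn values are whole numbers, whereas only 0.118% of the Hamburg values above 0 are whole. Over all genes, 85.1% of those values lie less than 0.1 below the next whole number. In the Hamburg neutrophils the shortfall of a member below the next whole number rose with the total UMIs of the cell (Spearman's rho 0.95 to 0.98 for the 7 members, over 168 to 192 cells, which share libraries and depth). Outside the Neutrophils cluster the median shortfall of Hamburg values under 1 was 0.351 for S100a8 and 0.477 for S100a9. The step that lowered these values is not given in the sources used here, and Hamburg levels of the members outside neutrophils are levels after that step. Cells of the same facility shared 29 barcodes over 9 pairs of libraries, and cells of different facilities 196 over 27 pairs. The barcodes of each Aachen library carried 2 suffixes, and those of each Bonn and Hamburg library 1. What the suffixes stand for is not given in the labels, so an Aachen library may hold more than 1 capture. Levels below are UMIs per 10000 UMIs of the same cells, with 95% exact Poisson intervals where given, which cover counting error only. UMIs are not scaled by gene length, so levels are compared between cells and not between genes.

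The Neutrophils cluster held 273 cells, 1.35% of all cells, and its label was checked against markers. All 8 neutrophil markers (S100a8, S100a9, Csf3r, Cxcr2, Mmp9, Ly6g, Hdc and Trem1) had their highest level in this cluster. Without S100a8, which the study used as the marker of this cluster, and S100a9, the other 6 summed to 34.6 UMIs per 10000 there against 0 to 1.67 in the other clusters. Of 14 genes of neutrophil identity, 12 were highest in the cluster, among them Hdc at 11.1 ± 3.86, Mxd1 at 10.98 ± 3.26, Clec4e at 10.4 ± 5.33 and Csf3r, the receptor of the neutrophil growth factor G-CSF, at 10.3 ± 1.91 UMIs per 10000 (SD, n = 3 facilities). Ly6g, the classical surface marker, chosen here after its value was seen, was at only 0.0881 ± 0.153. Markers of resident macrophages reached 68.7 per 10000 in the same cluster. At least 2 UMIs of the markers of another lineage were present in 109 of the 273 cells, 93 of them from Hamburg, and the resident macrophage markers ranged over the libraries from 2.79 in the neutrophils of the Aachen IM to 115 in those of the Bonn IM, with 100.2 in the Hamburg cortex. Their part in the values below was not tested, other than by leaving those cells out.

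The alarmin pair made up between 3.02% (Hamburg cortex) and 9.20% (Aachen IM) of the neutrophil UMIs of a library. S100a8 was at 315 ± 125 and S100a9 at 343 ± 77.8 UMIs per 10000 in the Neutrophils cluster (SD, n = 3 facilities), and 97.0% and 96.8% of all their UMIs in the data set lay in those 273 cells. A UMI of S100a8 was present in 97.4% of the neutrophils (95% exact binomial interval 94.8 to 99.0%) and of S100a9 in 96.3% (93.4 to 98.2%), against 0.160% and 0% of the 3759 cells of B_cell_1, the most numerous B cell cluster, where a count of 0 cells allows a share of up to 0.0798% (3 cells). The median depth was 2253 UMIs in the neutrophils and 2404 UMIs in B_cell_1. After each cell was thinned to 500 UMIs, which left 260 neutrophils and 3574 B cells, the shares were 91.5% for both genes in neutrophils and 0.0839% for S100a8 in B cells.
S100a8 was at 379, 147 and 526 per 10000 in the Aachen neutrophils of cortex, OM and IM, which were only 9, 1 and 15 cells. It was at 349, 330 and 293 in those of Bonn (19, 4 and 28 cells) and at 124, 212 and 217 in those of Hamburg (51, 94 and 52 cells). All Hamburg levels lay below all Bonn levels, and the Hamburg cortex was the lowest of the 9 libraries.
S100a9 was at 356, 183 and 394 at Aachen, 454, 381 and 365 at Bonn, and 177, 289 and 307 at Hamburg, in the order cortex, OM and IM. It was again lowest in the Hamburg cortex, whose neutrophils were the deepest of the 9 libraries (median 4080 UMIs), and 64.7% of which held at least 2 UMIs of markers of another lineage. Without all such cells the mean level of S100a8 in the cluster was 442 and that of S100a9 was 491. The ratio of S100a8 to S100a9 UMIs was 1.06, 0.80 and 1.34 in the Aachen neutrophils, 0.770, 0.867 and 0.803 in those of Bonn, and 0.702, 0.731 and 0.707 in those of Hamburg. The ratio was thus lowest and least variable at Hamburg, and above 1 only in the Aachen cortex and IM.

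**Figure D1:**
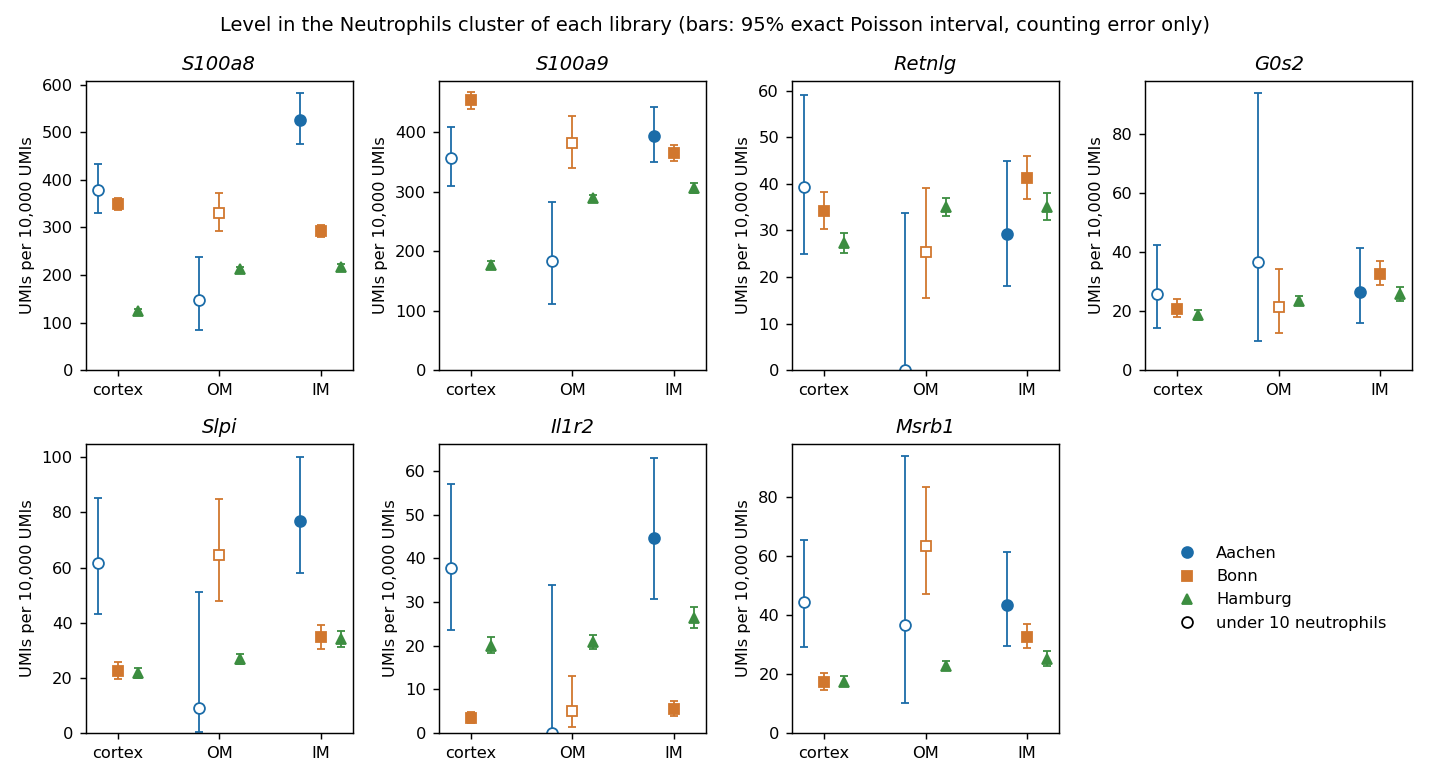
Level of each of the 7 genes in the neutrophils of each library (UMIs per 10000 UMIs, linear axes from 0), by compartment and facility, with bars for the 95% exact Poisson interval and open symbols for libraries with under 10 neutrophils. S100a8 and S100a9 were lowest in the Hamburg cortex (124 and 177), and Il1r2 at Bonn stayed between 3.36 and 5.49 in all compartments.

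The other 5 members were also detected in most neutrophils, at steadier or more variable levels depending on the gene. Retnlg was at 33.6 ± 2.97 and G0s2 at 25.2 ± 2.38 UMIs per 10000, the smallest spreads over the facilities relative to their means among the 7, and without the cells of mixed lineage at 51.9 and 37.5. A Retnlg UMI was found in 81.7% of the neutrophils (76.6 to 86.1%) and a G0s2 UMI in 81.3% (76.2 to 85.8%), against 0.0266% of the B_cell_1 cells for each.
Retnlg was at 39.4, 0 and 29.3 per 10000 in the Aachen cortex, OM and IM, at 34.2, 25.3 and 41.2 in those of Bonn and at 27.3, 35.0 and 35.1 in those of Hamburg. The 0 in the Aachen OM comes from a single cell of 1091 UMIs, where a count of 0 allows up to 27.5 per 10000. G0s2 was at 25.7, 36.7 and 26.5 at Aachen, 20.9, 21.5 and 32.7 at Bonn, and 18.6, 23.6 and 25.8 at Hamburg, without an order of the facilities that held in every compartment.
Slpi, the protease inhibitor, was at 40.6 ± 21.4 UMIs per 10000 and in 94.5% of the neutrophils (91.1 to 96.9%). It was at 61.7, 9.17 and 76.8 at Aachen, 22.5, 64.5 and 34.6 at Bonn, and 21.6, 26.8 and 34.0 at Hamburg, and was highest in the Aachen IM and lowest in the single cell of the Aachen OM.
Msrb1 was at 30.4 ± 11.4 and in 97.8% of the neutrophils (95.3 to 99.2%). Its values were 44.6, 36.7 and 43.3 at Aachen, 17.3, 63.3 and 32.5 at Bonn, and 17.4, 22.7 and 25.2 at Hamburg. The high Bonn OM value rests on 4 cells.
Il1r2, the decoy receptor, differed most between facilities, with a mean of 21.5 ± 17.0 and a UMI in 86.1% of the neutrophils (81.4 to 90.0%). It was at 37.7, 0 and 44.7 at Aachen, 3.36, 5.06 and 5.49 at Bonn, and 19.97, 20.8 and 26.3 at Hamburg. The levels of the 3 facilities did not overlap, apart from the single cell of the Aachen OM. The depth also differed between the facilities, and its part in these values was not tested.

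From cell to cell within a library, S100a8 and S100a9 rose and fell together, and the other members followed less closely. Over the 6 libraries with at least 10 neutrophils, Spearman's rho of the levels of S100a8 and S100a9 was 0.668 to 0.949, with a median of 0.916. The median rho with S100a9 was 0.563 for Retnlg, 0.364 for Slpi, 0.353 for Msrb1, 0.264 for G0s2 and 0.0328 for Il1r2. All of these cells share a library, and rho falls where a gene has few UMIs per cell, with medians of 72.8 UMIs per neutrophil for S100a9 and 4.98 for Il1r2, so the order of these values is a description only.
Over the 23 clusters, the genes most like S100a9 were S100a8, Retnlg, Lcn2 (lipocalin-2, a granule protein that binds bacterial iron carriers), Stfa2l1 and Clec4d, with a Pearson's r of 0.992, 0.957, 0.944, 0.935 and 0.924 on log2(level + 0.1), out of 10774 genes with at least 200 UMIs. G0s2 came at place 14, Il1r2 at place 22, Msrb1 at place 86 and Slpi at place 211. The Neutrophils cluster alone sets much of these values.

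**Figure D2:**
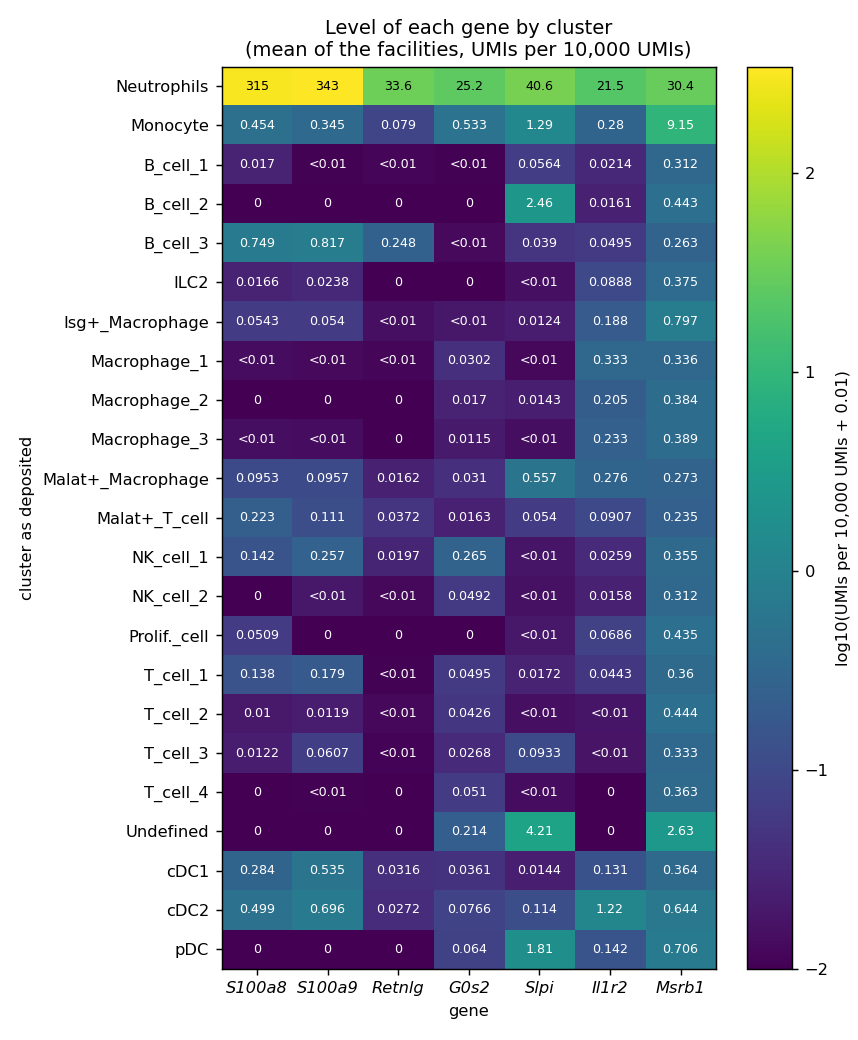
Mean level over the facilities of each of the 7 genes in each of the 23 clusters, in UMIs per 10000 UMIs as printed in the cells, with the colour on a log10 scale. The top row (Neutrophils) is highest for every gene, Msrb1 is also high in monocytes (9.15), and S100a8, S100a9 and Retnlg stay under 1 in all other clusters.

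Outside the Neutrophils cluster the members fell into 2 kinds. S100a8, S100a9 and Retnlg were close to 0 in other cell types except in a few cells that held many UMIs, whereas G0s2, Slpi, Il1r2 and Msrb1 had their own low to moderate levels in particular cell types. The Neutrophils cluster held 97.2% of all Retnlg UMIs, 83.2% of G0s2, 69.4% of Slpi, 61.7% of Il1r2 and 27.1% of Msrb1.
S100a8 and S100a9 together reached at least 0.5 UMIs in 183 of the 19993 other cells. Of these, 14 cells held at least 5 UMIs, from 10.4 to 286, and the other 169 cells held at most 2.64, so that no cell lay between 2.64 and 10.4. The median neutrophil held 127, and 261 of the 273 neutrophils held at least 5. The 14 cells came from 8 clusters, 13 of them from Hamburg, 1 from Aachen and none from Bonn, and they held 87.3% of the S100a8, 91.4% of the S100a9 and 79.2% of the Retnlg UMIs outside neutrophils. Of the 14, 12 were deeper than the median cell of their cluster at the same facility, by 1.53 times as a median of the 12. The highest was a cDC1 cell of the Hamburg OM with 100.4 UMIs of S100a8, 185 of S100a9, 10.9 of Retnlg, 7.93 of G0s2 and 6.92 of Il1r2 among 13133 UMIs. The next highest was a T_cell_1 cell of the Hamburg IM with 104 and 112 UMIs of the pair, 3.79 times as deep as its cluster's median. Levels of the pair in T and B cells, monocytes and resident macrophages are given with and without these 14 cells.

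**Figure D3:**
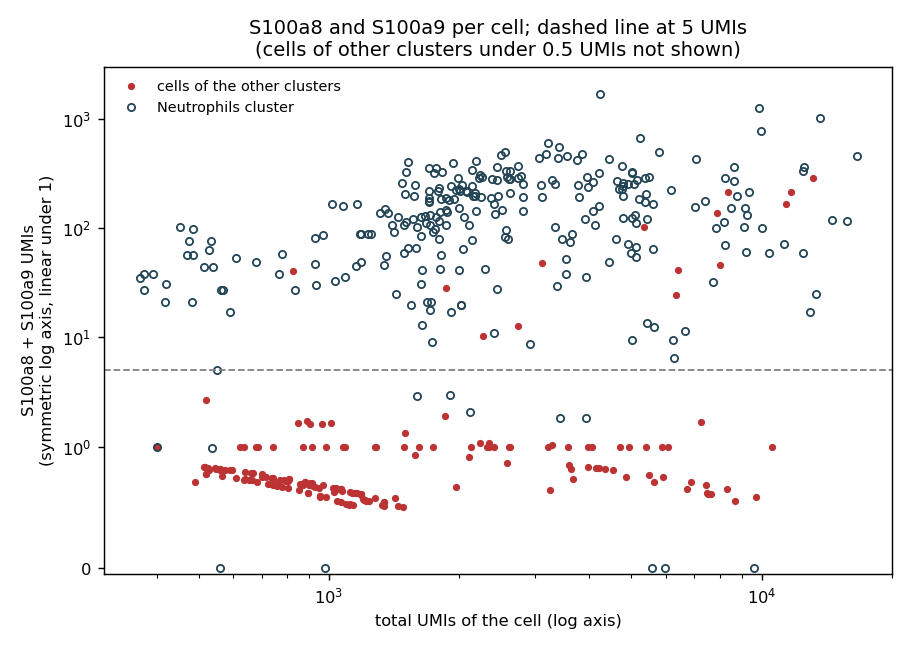
Summed S100a8 and S100a9 UMIs of single cells (symmetric log axis) against the total UMIs of the cell (log axis), for all 273 neutrophils and the cells of other clusters that held at least 0.5. Of the cells of other clusters, 14 lie above the dashed line at 5 UMIs, from 10.4 to 286, and the rest at or under 2.64.

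T and B cells, which should lack S100a8, S100a9 and Retnlg, gave the background of each library. They held Msrb1 in every library, at 0.292 to 0.448 UMIs per 10000. Whether this was their own RNA or free RNA, for example from monocytes, was not tested. For Msrb1 they are thus used as a comparison and not as a background. Over 9594 T and B cells, S100a8 was at 0 to 0.334 UMIs per 10000 in the 9 libraries (median 0.0166) and S100a9 at 0 to 0.420 (median 0.0132). Without the high cells these ranges were 0 to 0.0527 and 0 to 0.0180, from 20.6 and 22.1 UMIs in all. Retnlg was at 0 in 6 of the 9 libraries and at most at 0.0224. A UMI of S100a8 or of S100a9 was present in 0.261% of the T and B cells each, and of Retnlg in 0.0730%.
In monocytes each gene of the pair had an interval above that of the T and B cells in 3 of 9 libraries, the Aachen OM and the Hamburg cortex and OM, each of which held at least 1 of the 14 high cells. Without the high cells this was so in 2 of 9 libraries for S100a8 and in 1 of 9 for S100a9, all from Hamburg. S100a9 in monocytes was at 0, 2.55 and 0 per 10000 in the Aachen cortex, OM and IM, 0.00930, 0 and 0 at Bonn, and 0.416, 0.515 and 0.0909 at Hamburg. All 11 UMIs of the Aachen OM came from a single cell with 17 UMIs of S100a8, which is among the 14 high cells. Without the high cells S100a9 in monocytes was at 0.0303, 0.105 and 0.0909 in the Hamburg cortex, OM and IM, and at 0 in all Aachen libraries. Over all libraries, the 714 monocytes held S100a8 at 0.185 and S100a9 at 0.208 per 10000, and the 710 without the high cells at 0.0467 and 0.0415. Resident macrophages, the most numerous myeloid cells here, held S100a8 at 0.00625 and S100a9 at 0.00571 per 10000 in 5367 cells, and at 0.00244 and 0.00233 in the 5366 cells without the high one.

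Free RNA from neutrophils carries the members in the proportions found in neutrophils, so the S100a9 UMIs of a class set how many UMIs of another member came with it if all of its S100a9 was free RNA. The step that lowered the Hamburg values can change these proportions. Outside neutrophils the median shortfall of Hamburg values under 1 was 0.477 for S100a9, 0.249 for Slpi, 0.229 for G0s2, 0.142 for Msrb1 and 0.0810 for Il1r2. The corresponding UMIs below may thus be too low, and they were not corrected for this. In the 710 monocytes without the high cells, the 14.4 S100a9 UMIs corresponded to 1.14 UMIs of Msrb1, 1.40 of Slpi, 1.17 of G0s2 and 0.946 of Il1r2 at the neutrophil proportions. The counted values were 3350 for Msrb1, 483 for Slpi, 216 for G0s2 and 85.8 for Il1r2. In the 665 cDC2 cells (type 2 conventional dendritic cells), 486 Il1r2 UMIs were counted where 0.211 corresponded, and in the 99 plasmacytoid dendritic cells (pDC) 141 Slpi UMIs were counted with no S100a9 UMI. For S100a8 the 2 values were closer, 16.2 counted against 10.7 in monocytes and 20.6 against 16.5 in T and B cells. S100a8 and S100a9 also varied together within neutrophils, and the high cells were left out by the sum of these 2 genes. Whether the remaining UMIs of the pair were free RNA or own expression was thus not tested.

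Msrb1 was the member with the smallest share of its UMIs in neutrophils. Monocytes held 42.8% of its UMIs, more than the 27.1% of the much fewer neutrophils. Its level in monocytes was 9.15 ± 1.22 UMIs per 10000 (SD, n = 3 facilities), below the 30.4 of neutrophils.
In monocytes it was at 7.08, 6.50 and 9.80 per 10000 in the Aachen cortex, OM and IM, at 10.7, 9.69 and 9.67 in those of Bonn, and at 8.28, 9.62 and 9.28 in those of Hamburg. T and B cells of those libraries had 0.292 to 0.448. Monocytes thus lay above T and B cells in 9 of 9 libraries, by 18.5 to 32.96 times, and the counting intervals did not overlap in any. A UMI was present in 81.4% of monocytes (78.3 to 84.2%) at a median depth of 4061 UMIs and in 8.01% of the B_cell_1 cells, and after thinning to 500 UMIs in 34.4% of 710 monocytes, 74.6% of neutrophils and 1.87% of B cells. Resident macrophages were at 0.271 to 0.512 and were above T and B cells in 0 of 9 libraries by the same intervals. The T and B cells of the Bonn cortex held 347 Msrb1 UMIs and 0 of S100a9, which stands only for free RNA from neutrophils. Free RNA from monocytes was not tested. The comparison with T and B cells thus does not show that resident macrophages lack Msrb1. cDC2 were above them in 4 of 9 libraries, at 0.302 to 1.14. The cluster deposited as Undefined (69 cells) was at 3.18 and 5.81 in its 2 libraries with at least 10 cells.

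Outside neutrophils, Slpi was above the T and B cells by the intervals mainly in monocytes and pDC. Monocytes held it at 1.29 ± 0.738 UMIs per 10000 (SD, n = 3 facilities). By library it was at 0.472, 0.928 and 1.66 at Aachen, 0.790, 0.277 and 0.691 at Bonn, and 1.16, 2.22 and 2.79 at Hamburg, in the order cortex, OM and IM, with the highest values in the Hamburg medulla. The monocyte interval lay above that of T and B cells in 7 of 9 libraries. In pDC, a cell type known for interferon production, the level was 2.33 in the Bonn cortex, 1.12 in the Hamburg cortex and 2.24 in the Hamburg OM, 49.9 to 85.9 times that of the T and B cells. A UMI was present in 46.5% of pDC (36.4 to 56.8%) at a median depth of 7351 UMIs, against 0.213% of B_cell_1 cells, and in 5.05% of the thinned pDC.
Some Slpi values came from very few cells. B_cell_2 of the Aachen OM was at 16.5 per 10000 from 54 UMIs in 2 of 39 cells, and was at most at 0.0860 in the other 8 libraries. The Malat+_Macrophage cluster of the Bonn IM was at 4.51 from 65 UMIs in 2 of 49 cells. In the Undefined cluster of the Hamburg cortex, 127 UMIs were in 1 of 3 cells, and this cluster was also above the T and B cells in its 2 larger libraries, at 0.968 in the Bonn cortex and 0.916 in the Bonn IM. cDC2 of the Hamburg OM were at 0.578, above the T and B cells in 1 of 9 libraries. The Aachen OM cells also raise the T and B cell value of that library to 0.813, the highest of the 9.

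Il1r2 was present in cDC2 and, at a lower level, in resident macrophages and monocytes. In cDC2 it was at 1.22 ± 1.63 UMIs per 10000, a spread that came from Hamburg. It was at 0.137, 0.603 and 0.379 in the Aachen cortex, OM and IM, at 0.0653, 0.195 and 0.193 at Bonn, and at 3.43, 3.47 and 2.19 at Hamburg, so that all 3 Hamburg values lay above the 6 others. The cDC2 interval was above that of T and B cells in 8 of 9 libraries. A UMI was present in 19.8% of cDC2 (16.8 to 23.0%) at a median depth of 5172 UMIs, against 0.585% of B_cell_1, and in 4.83% and 0.0839% after thinning.
In resident macrophages it was at 0.304, 0.173 and 0.221 at Aachen, 0.0984, 0.165 and 0.128 at Bonn, and 0.425, 0.441 and 0.548 at Hamburg, above the T and B cells (0 to 0.0568) in 9 of 9 libraries by the counting intervals. In monocytes it was at 0.00930 to 0.735 and above T and B cells in 4 of 9. The Malat+_Macrophage cluster was above them in 5 of 9 libraries, at up to 0.718, and cDC1 in 2 of 8. The pDC (0.535) and the type 2 innate lymphoid cells (0.424) were above them in the Hamburg cortex only. Bonn was lowest and Hamburg highest in resident macrophages and cDC2 as means of the compartments, and Bonn was also lowest in neutrophils.

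Outside neutrophils, G0s2 was above the T and B cells most often in monocytes. In monocytes it was at 0.533 ± 0.401 UMIs per 10000, with 0.314, 0.464 and 0.166 at Aachen, 0.335, 0.415 and 0.194 at Bonn, and 1.503, 0.669 and 1.10 at Hamburg. These values were above T and B cells (0.0127 to 0.0374) by the intervals in 6 of 9 libraries. A UMI was present in 13.7% of monocytes and in 2.68% after thinning. In NK cells it was at 0.0331 to 0.312 and above T and B cells in 1 of 9 libraries, the Bonn cortex, where 30 UMIs were counted in 272 cells. The Undefined cluster of the Bonn IM was at 0.836, from 21 UMIs in 28 cells. cDC2 of the Hamburg cortex (0.420) and OM (0.277) and cDC1 of the Hamburg OM (0.191) were also above, and nearly all of their UMIs lay in 4 of the 14 cells high in S100a8 and S100a9. T cells were at 0.0187 to 0.0625 and B cells at 0 to 0.00306 in the 9 libraries.

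**Figure D4:**
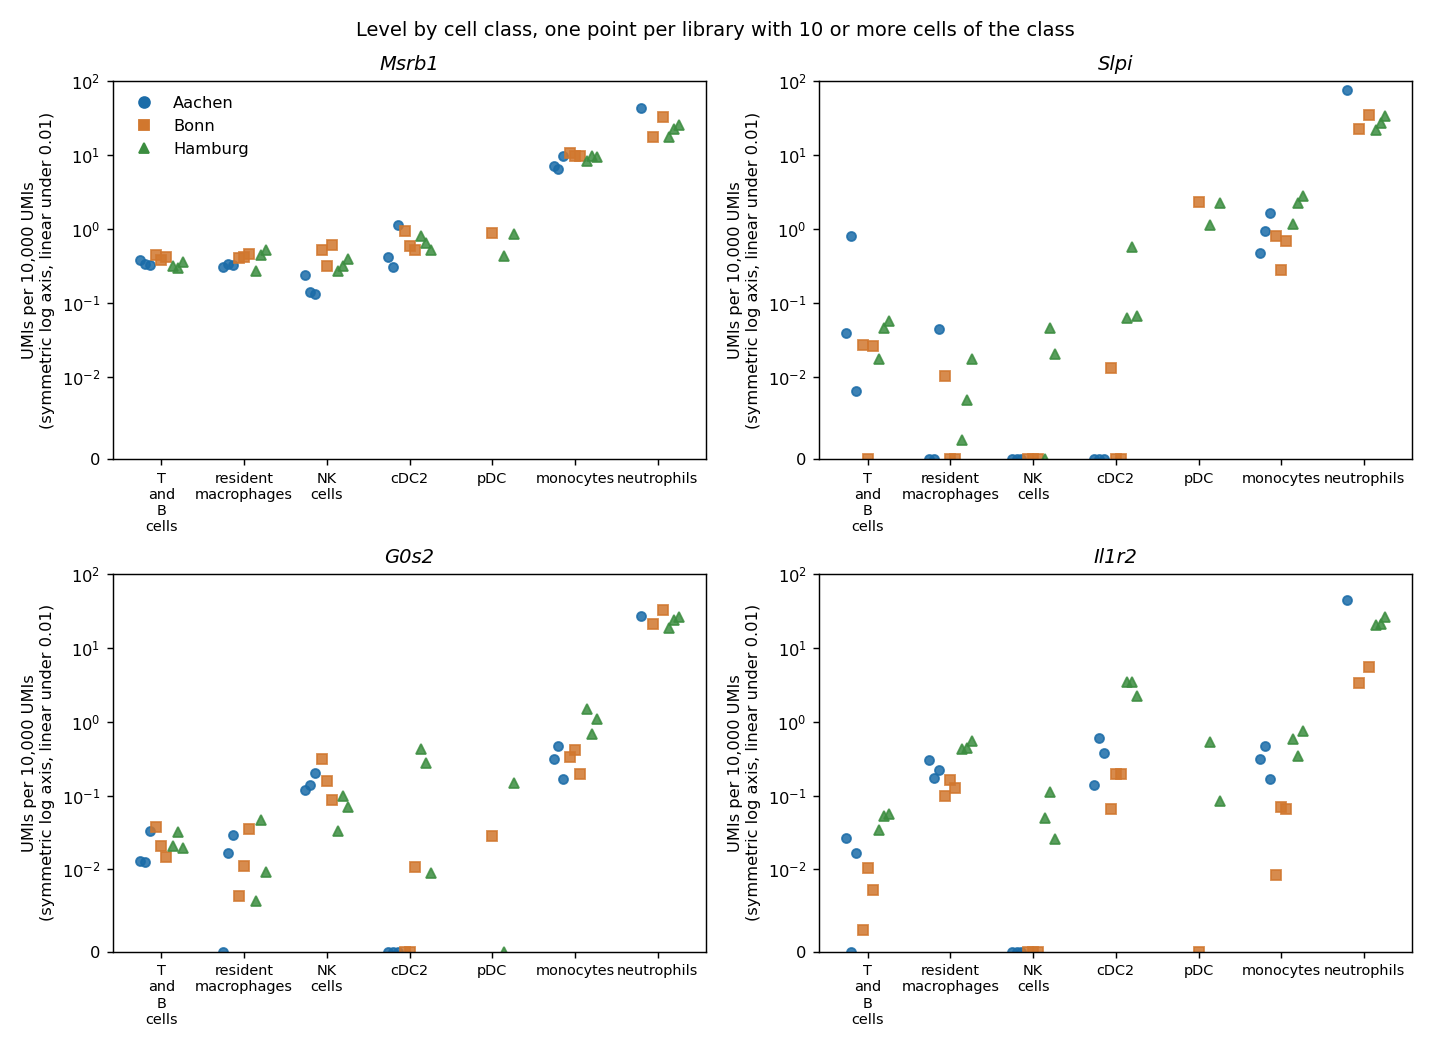
Level of Msrb1, Slpi, G0s2 and Il1r2 (UMIs per 10000 UMIs, symmetric log axis) in cell classes, with a point for each library that has at least 10 cells of the class. Msrb1 in monocytes lies between 6.50 and 10.7 in all 9 libraries, far above the T and B cells (0.292 to 0.448), and Il1r2 in cDC2 is highest at Hamburg (2.19 to 3.47).

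The study set the 3 compartments side by side, and the comparison of medulla (the mean of OM and IM) with cortex asked whether the members follow the position in the kidney. No member passed the test between medulla and cortex in any class of cells. UMIs were summed per class of cells and library, with the facility as a block. Neutrophils had only 6 libraries with at least 10 cells (OM only from Hamburg), which left 1 residual degree of freedom. Where all cells were summed, fewer cells of a type and less RNA per cell cannot be told apart.
In neutrophils, edgeR called 0 of 7 members, with 0% of all 2940 genes called (110 genes had an unadjusted p under 0.05), and DESeq2 called 0 of 7. S100a8 was at 30753 ± 4330 CPM (library-size and TMM-normalised counts, SD, n = 4 libraries) in medulla and 29960 ± 20304 (n = 2) in cortex, a log2 difference of 0.35 (SE 0.37, 95% interval -0.48 to 1.19, adjusted p = 0.979 by edgeR's quasi-likelihood test). The difference was -0.32 at Bonn and 0.80 at Hamburg, so that the facilities with a value went in opposite directions. S100a9 differed by 0.30 (SE 0.37, 95% interval -0.54 to 1.14), with -0.38 at Bonn and 0.76 at Hamburg. Without the facility block the differences were -0.035 for S100a8 and -0.14 for S100a9. For the other 5 members the log2 difference was 0.30 for Retnlg, 0.45 for G0s2, 0.45 for Slpi, 0.31 for Il1r2 and 0.58 for Msrb1, each with the same direction in 2 of 2 facilities and an interval that included 0 (for Msrb1 -0.13 to 1.28). Without the cells of mixed lineage Retnlg was at -0.36.
In monocytes, 0 of the 5 members that passed the filter on low counts were called (S100a9, G0s2, Slpi, Il1r2 and Msrb1), against 0.312% of 5455 genes, and DESeq2 called 0. G0s2 was at 51.6 ± 34.4 CPM in medulla and 74.7 ± 69.6 in cortex, a log2 difference of -0.71 (SE 0.28, unadjusted p = 0.0122 and adjusted p = 0.963 by edgeR), lower in 3 of 3 facilities. Slpi differed by 0.44 (SE 0.23, adjusted p = 0.999 by edgeR), with 1.31 at Aachen, -0.76 at Bonn and 1.01 at Hamburg, and by -0.61 without the cells of mixed lineage. Msrb1 was at 950 ± 138 CPM in medulla and 910 ± 130 in cortex, a log2 difference of 0.05 with a 95% interval of -0.24 to 0.33 (-0.14 without the cells of mixed lineage). The cells of mixed lineage were 561 of the 714 monocytes (78.6%), so the monocyte values without them rest on a minority of the monocytes.
In cDC2, 0 of 2 members were called against 0.293% of 4430 genes, with Il1r2 at 0.13 (95% interval -0.45 to 0.71, turning to -0.14 without Bonn and -0.043 without the facility block) and Msrb1 at -0.50 (-1.05 to 0.04) on the log2 scale. In resident macrophages, 0 of 2 were called against 1.23% of 8228 genes. There Msrb1 was at 42.1 ± 5.47 CPM in medulla and 32.9 ± 6.28 in cortex, a log2 difference of 0.34 (-0.01 to 0.70, adjusted p = 0.513 by edgeR) in the same direction in 3 of 3 facilities. Msrb1 was the only member that passed the filter in T cells and in B cells, where it was not called against 0.0117% of 8522 and 0.0353% of 8509 genes. No member passed the filter in NK cells (0% of 2908 genes called). S100a8 and S100a9 did not pass it in T cells or cDC2. They were called in cDC2, and S100a9 in T cells, where the filter, the Aachen libraries or the Bonn libraries were left out. In cDC2, the 668 cells held 305 S100a9 UMIs and the 665 cells other than the high ones held 3.22.
Over all cells together, 0 of 7 members were called against 0.00779% of 12835 genes. Slpi had the smallest unadjusted p (0.0402, adjusted p = 0.404 by edgeR). It was at 59.8 ± 45.4 CPM in medulla and 40.3 ± 28.6 in cortex, a log2 difference of 0.54 (95% interval 0.03 to 1.04), higher in 3 of 3 facilities. In the Aachen OM, 64 Slpi UMIs lay in 3 of the 959 T and B cells. The direction at Aachen without these 3 cells was not tested. Over the 8 classes, 2 of 25 member tests had an unadjusted p under 0.05 in this contrast, and DESeq2 called 0 of the 25. OM against cortex gave 0 calls in 25 tests, with 1 unadjusted p under 0.05 and no call by DESeq2. Of all genes, edgeR called there 0.826% in resident macrophages, 0.238% in monocytes, 0.034% in neutrophils, 0.0235% in T cells, 0.047% in B cells, 0.113% in cDC2 and 0% in NK cells and in all cells. Of these tests, 7 were in neutrophils, where OM was the single Hamburg library, so their intervals rest on the spread of the other groups. IM against cortex also gave 0 calls in 25 tests, with 3 unadjusted p under 0.05 and no call by DESeq2. The share of all genes called was 0.0851% in resident macrophages, 0.202% in monocytes, 0.0235% in T cells, 0.0353% in B cells, 0.158% in cDC2 and 0% in the other classes. Some members were called in these contrasts under an alternative, namely S100a9 in T cells without Aachen or without Bonn in both, and in IM against cortex S100a8 and S100a9 in cDC2 without Aachen or without Bonn and Slpi in monocytes without Bonn (log2 difference 1.32, adjusted p = 0.0457 by edgeR). The pair in cDC2 was called in the same settings in medulla against cortex and in OM against IM, as was S100a9 in T cells in medulla against cortex, and 3 of the 14 high cells are cDC2 and 3 are T cells. Without the filter, members were called in OM against cortex in T and B cells and in IM against cortex in monocytes, T cells, cDC2 and NK cells.
OM against IM gave 1 call of a member, S100a9 in monocytes, where 0.0917% of all genes were called. In the other classes of that contrast no member was called, with 0.068% of all genes called in neutrophils, 0.0235% in B cells, 0.135% in cDC2 and 0% elsewhere. S100a9 was at 112 ± 151 CPM in OM and 2.89 ± 5.004 in IM (SD, n = 3), a log2 difference of 3.15 (SE 0.72, adjusted p = 0.0361 by edgeR), higher in OM in 2 of 3 facilities and at 0 in both at Bonn. The Aachen OM value of 283 CPM comes from the single high cell described above. Without the 14 high cells S100a9 did not pass the filter in monocytes, and without the Aachen libraries its adjusted p was 1.0, as with DESeq2. Other members were called in OM against IM under an alternative. Without the cells of mixed lineage this was Slpi in monocytes (log2 difference 2.86, adjusted p = 0.0237 by edgeR). Without the filter, S100a8 was called in T cells, Slpi in B cells, S100a8, S100a9 and Slpi in cDC2, and S100a8 and S100a9 in NK cells.

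The share of neutrophils among the cells and the level of S100a8 and S100a9 in all cells together had no difference between medulla and cortex that passed the test. The neutrophil share was 0.645%, 0.0272% and 0.723% in the Aachen cortex, OM and IM, 0.519%, 0.644% and 1.49% at Bonn, and 2.08%, 3.83% and 2.53% at Hamburg. Hamburg had the highest share in each compartment. The authors filtered cells by their number of genes. The neutrophils kept had a median of 237 genes at Aachen, 776 at Bonn and 1115 at Hamburg. The part of that filter in the shares of the facilities was not tested. The mean of the cortex was 1.08 ± 0.869% (SD, n = 3) and that of the medulla 1.54%. The medulla lay above the cortex by 0.459 percentage points (exact permutation test over the 27 arrangements within facilities, two-sided, p = 0.370), higher in 2 of 3 facilities, where the smallest p the design allows is 0.0370. The summed level of S100a8 and S100a9 over all cells was 2.07, 0.203 and 2.62 per 10000 at Aachen, 4.54, 2.09 and 5.72 at Bonn, and 8.50, 21.9 and 12.8 at Hamburg. The log2 difference between medulla and cortex was -0.31 (exact permutation test, p = 0.852), with -1.51 at Aachen, -0.39 at Bonn and 0.98 at Hamburg, and it was 0.29 without Aachen. Between 95.6% and 100% of these UMIs came from the Neutrophils cluster in the libraries other than the Aachen OM, and 52.2% there, with 1 neutrophil.

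**Figure D5:**
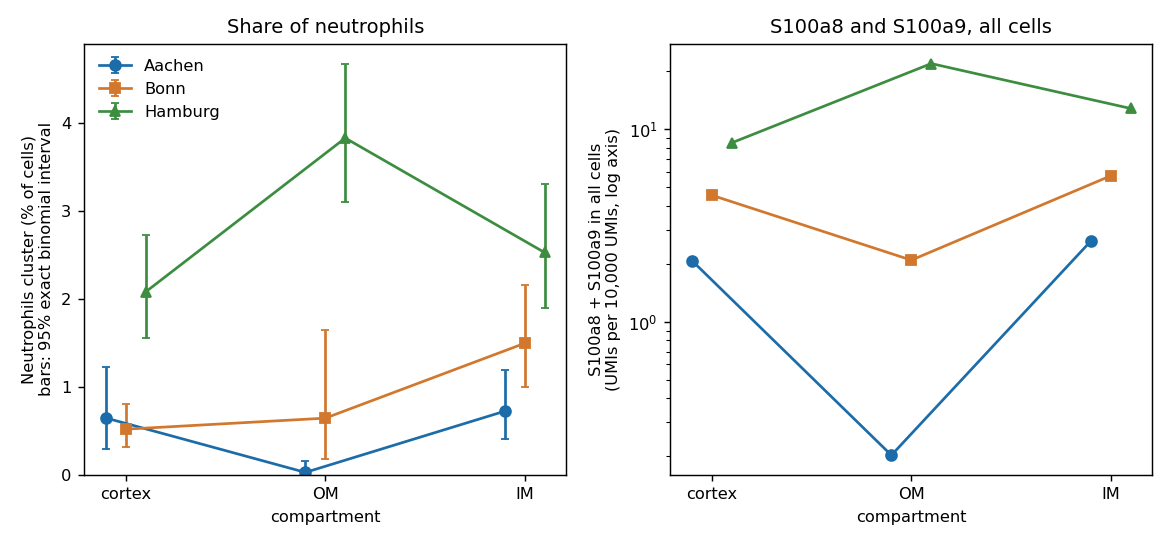
Left, share of cells in the Neutrophils cluster (% of cells, bars for the 95% exact binomial interval), and right, S100a8 plus S100a9 over all cells (UMIs per 10000 UMIs, log axis), by compartment, with a line for each facility. Hamburg lies highest throughout, and the Aachen OM, with 1 neutrophil, lies lowest on both (0.0272% and 0.203).

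Other neutrophil genes were described by lists, which were drawn up with earlier results of these data known. Of 6 measured genes of the list for primary granules, 0 were highest in the Neutrophils cluster. Serpinb1a, which encodes an inhibitor of granule proteases and not a granule protein, was at 0.240 UMIs per 10000 there. Prtn3, Mpo and Ctsg, genes of primary granules, were at 0.0129, 0.00851 and 0.00439. These granules are filled early in the bone marrow. Of 13 genes of secondary and tertiary granules, 9 were highest in neutrophils, among them Pglyrp1 at 13.3 ± 0.790 and Hp at 10.2 ± 4.12. The secondary granule genes Ltf, Camp, Lcn2 and Ngp, named after their values were seen, were at 0 in all Aachen neutrophils, and Ltf and Camp also in those of Bonn. The Aachen neutrophils were 25 cells with a median of 485 UMIs. For Ltf and Camp, a count of 0 there is not shown to lie below the Hamburg levels of 1.08 and 2.28. Of the remaining genes of this list, Lyz2 (31.3) was highest in monocytes (215) and Cyba (15.3) in Macrophage_2 (17.8). Of 11 other S100 genes, S100a11 (57.8 ± 14.4) and S100a6 (37.6 ± 10.9) were highest in neutrophils, and S100a4 (1.38) and S100a13 (0.721) were not. Of 16 inflammatory genes, 11 were highest in neutrophils, with the chemokine Cxcl2 at 132 ± 76.8, Il1b at 66.0 ± 22.1, Srgn at 53.8 ± 14.7 and Ifitm2 at 29.7 ± 14.3. For comparison, 5.21% of the 10774 genes with at least 200 UMIs were highest in this cluster. Among the list genes with at least 200 UMIs, these were 11 of 13 for identity and 0 of 1 for primary granules, this 1 being Serpinb1a. The counts were 7 of 11 for secondary and tertiary granules, 2 of 6 for other S100 genes and 11 of 16 for inflammatory genes.
Among 13 partners and targets of the members, Pnpla2, Retn and Il1rap were highest in neutrophils. Pnpla2, the lipase that G0s2 inhibits, was at 1.02 ± 0.398 there, Retn, a relative of Retnlg, at 0.592 ± 0.720, and Il1rap, the accessory chain of the interleukin-1 receptor, at 0.545 ± 0.221. Msra, the reductase for the other form of oxidised methionine, was at 0.932 ± 0.412 in neutrophils and highest in Undefined, and Cd36 was at 0.711 ± 0.715 and highest in cDC1. The elastase gene Elane, whose product SLPI inhibits, had 0 UMIs in the whole table.
Camp (the cathelicidin antimicrobial peptide) and Ngp, both genes of secondary granules, were the only genes of the lists called in neutrophils, higher in OM than in IM, and Camp also higher than in cortex (0.068% and 0.034% of 2940 genes called by edgeR). These calls rest on a single cell of the Hamburg OM, which held all 172 Camp UMIs and all 325 Ngp UMIs of its library, whereas Camp had no UMI in the neutrophils of the 8 other libraries. Ngp was also present in 2 neutrophils of the Bonn cortex, with 268 UMIs.
In other classes, 4 further genes of the lists passed the test between compartments by edgeR. In resident macrophages, Lyz2 (lysozyme) was higher in medulla than in cortex by 1.45 (SE 0.31, adjusted p = 0.0349) on the log2 scale. In monocytes, Tnfaip3, an inhibitor of NF-kappaB signalling, was lower in medulla by -0.99 (SE 0.21, adjusted p = 0.00494), and Cxcl2 was lower in OM than in cortex by -0.94 (SE 0.24, adjusted p = 0.0475). In cDC2, Ifitm1 was lower in medulla than in cortex by -2.79 (SE 0.26, adjusted p = 1.48e-06), with mean levels of 25.9 and 124 CPM. In monocytes DESeq2 called 0 genes in OM against cortex, so not Cxcl2, and 1 gene in medulla against cortex. These list genes were not followed under the other alternatives. In each of these contrasts the number of all genes called fell to 0 under an alternative.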

How the data were processed

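CD45+ cells of the kidney cortex, OM and IM were measured by single-cell RNA sequencing at 3 facilities. The deposited values are estimated counts of UMIs per gene and cell. According to the study's methods and processing notes, the authors aligned the reads with Cell Ranger to mm10, filtered cells by genes and mitochondrial share, integrated the datasets with Seurat and annotated the clusters with SingleR and marker genes. The deposited cluster, compartment and facility of each cell were used unchanged, and no column of the table was left unmapped (0). The Hamburg counts are not whole, and were rounded to the nearest whole number for the count models. How they came to lie below whole numbers is not given in the sources used here.

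The 7 members and all gene lists were chosen with earlier results of these data known. All members are named in each main result. Of each list of other genes, at most 4 with the highest level in neutrophils are named, of the genes most like S100a9 the first 5, and of list genes in compartment contrasts those with an adjusted p under 0.05. Ly6g, Elane, Ltf, Camp, Lcn2, Ngp, Lyz2, Cyba and the partners and targets of the members were named after their values were seen. In the lists of primary granules and erythrocytes 1 gene each was not matched to a column.

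A level is the sum of a member's UMIs over the sum of all UMIs of the same cells, per 10000, and its mean ± SD is over the 3 facilities. A cell was called positive at 0.5 UMIs or more. Cells of mixed lineage held at least 2 UMIs of the markers of another lineage than their own. By this rule 561 of the 714 monocytes (78.6%) were of mixed lineage. Apoe, one of the resident macrophage markers used, was at 30.4 UMIs per 10000 in monocytes. Such cells were thus not shown to be doublets. Intervals are exact (Poisson for levels, binomial for shares), at 95%, and cover counting error only. Doublets were not called here, since the table had been filtered by the authors and cells of mixed lineage were instead left out as an alternative.

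For compartments, UMIs were summed per class and library with at least 10 cells, and tested with edgeR's quasi-likelihood test (version 4.0.16, R 4.3.3, TMM, facility as a block, Benjamini-Hochberg adjustment over all genes past the filter on low counts). DESeq2 1.42.0 was an alternative. Libraries of the same facility deviated together (Pearson's r 0.780 to 0.904 over 12835 genes, 9 pairs) and those of different facilities less so (-0.898 to 0.606, 27 pairs), so the facility pairs them. The labels name no replicate animals, so p-values measure only the spread between these 9 libraries, which may be technical. The other alternatives were another normalization, no filter, no block, leaving out each facility, thinning to 500 UMIs, rounding up the Hamburg values, and leaving out cells of mixed lineage. Leaving out the 14 cells high in S100a8 and S100a9 was chosen after seeing the data. The count models were tested on simulated data for the classes other than neutrophils, with a fixed dispersion and no effect of the facility. The neutrophil fit was not tested in this way. Python 3.11.15, numpy 2.4.6, scipy 1.17.1 and pandas 2.3.3 were used.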

Additional observations from a re-analysis of the deposited data

Results flagged for a closer look

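The difference between medulla and cortex had opposite signs at different facilities for 4 results, with every library of the medulla on one side of the cortex of its facility. S100a8 in neutrophils was at -0.32 at Bonn and 0.80 at Hamburg, and S100a9 in neutrophils at -0.38 and 0.76 (log2). Slpi in monocytes was at 1.31 at Aachen, -0.76 at Bonn and 1.01 at Hamburg. Msrb1 in monocytes was at -0.14 at Bonn and 0.14 at Hamburg. These differences between facilities were not tested. At Bonn the neutrophil values rest on 19 cells of the cortex and 28 of the IM, and at Hamburg on 51, 94 and 52 cells of cortex, OM and IM.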

How the results depend on the processing

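Of 342 values under alternatives for 40 results, 305 kept their direction and call or stayed within the spread of the facilities. Where a value moved, the cause was not tested, unless fewer cells or libraries entered by construction. Without the cells of mixed lineage, the levels in neutrophils were 442 for S100a8, 491 for S100a9, 51.9 for Retnlg, 37.5 for G0s2 and 42.6 for Msrb1, the ratio of Slpi in monocytes to T and B cells rose from 12.5 to 85.9, and the log2 differences of medulla against cortex changed sign for Slpi (-0.61) and Msrb1 (-0.14) in monocytes and Retnlg (-0.36) in neutrophils. The cells of mixed lineage were 561 of the 714 monocytes and 109 of the 273 neutrophils, so these monocyte values rest on a minority of the monocytes. Thinned to 500 UMIs, Retnlg was at 43.9 and G0s2 at 34.2 in neutrophils. Per cell instead of per UMI, the ratios to T and B cells were 41.9 for Msrb1 in monocytes (24.97 per UMI), 102 for Il1r2 in cDC2 (55.8) and 141 for Slpi in pDC (58.7).

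Leaving out each facility in turn gave 6.40 to 45.9 for the ratio of Slpi in monocytes (highest without Aachen), 29.7 to 63.5 for that of Il1r2 in cDC2 (lowest without Hamburg), -0.95 to 0.29 for the log2 difference of S100a8 and S100a9 in all cells (positive without Aachen), 0.140 to 0.823 points for the neutrophil share (lowest without Hamburg), -0.14 (without Bonn) to 0.02 for the log2 difference of Il1r2 in cDC2, 0 to 1 members called in T cells (S100a9, without Aachen or without Bonn), 0 to 2 in cDC2 (S100a8 and S100a9, without Aachen or without Bonn) and 0 to 1 in monocytes in OM against IM.

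Without a filter on low counts, Retnlg was called in monocytes (1 member), S100a8 and S100a9 in T cells (2) and in cDC2 (2), in medulla against cortex. Without the replicate block, the differences of S100a8 (-0.035) and S100a9 (-0.14) in neutrophils and of Il1r2 in cDC2 (-0.043) changed sign, and S100a9 in monocytes, OM against IM, was no longer called (3.99, adjusted p = 1.0 by edgeR). No other call of a member in these results changed without the block. S100a9 there was also not called with DESeq2 (4.07), without Aachen (2.55), without Hamburg, after thinning or without the high cells. The number of all genes called in resident macrophages, medulla against cortex, ran from 0 to 382 around 101, and in neutrophils from 0 to 8 around 0. Fits of neutrophils without Bonn or without Hamburg had no residual degrees of freedom and were not run, nor was the level over all cells without the Neutrophils cluster, where a library had 0 UMIs. The 9 Aachen cortex, 1 Aachen OM and 4 Bonn OM neutrophils limit every neutrophil value of those libraries.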
